A study of Saccharomyces cerevisiae with 64 samples.

Results

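The comparison covered wild-type Spp1 in budding yeast after 2 h in sporulation medium (SPM), set against the moment of transfer to SPM (0 h). It used 6 chromatin immunoprecipitation sequencing (ChIP-seq) libraries of the 62 in the series that had a peak list, 3 at 2 h and 3 at 0 h, chosen by strain, medium and time. All came from diploids of the SK1 background, which sporulates efficiently, grown in rich medium, then overnight in pre-sporulation medium (SPS), and moved to SPM, whose carbon source is potassium acetate. Per the labels' protocols, the authors discarded time courses that sporulated slowly or out of step.

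The Spp1-myc strain had 1 library per time. Its genotype was SPP1-13xmyc-KanMX4 on both homologues, with leu2/LEU2 and HIS4/his4 and homozygous for trp1 and ura3, and Spp1 was precipitated with an anti-myc antibody. The H3 wild type strain had 2 libraries per time. Its genotype carried SPP1-3xHA::KanMX4 on both homologues, and precipitation was with anti-HA, although the sample descriptions call this strain myc. It was homozygous for lys2, for ho::LYS2, for trp1-1 and for ura3, was leu2/LEU2 and HIS4/his4, and was labelled as deleted for the chromosomal H3 genes (hht1 delta::HphMX on both homologues and hht2 delta::KanMX4 over hht1 delta::HphMX, as labelled). Wild-type H3 came from the centromeric plasmid pCEN-ARS(HHT2,HHF2,TRP1). Tag, antibody and H3 source therefore differed between the strains and cannot be told apart from strain. The labels do not say whether replicates came from separate cultures, so spread between libraries may be technical.

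Spp1 is a subunit of Set1C (COMPASS), the complex that methylates lysine 4 of histone H3 around the start of transcribed genes. Its PHD finger binds that methylated lysine. In meiosis Spp1 also binds Mer2 (Rec107) on the chromosome axis, a link known to bring recombination sites to the machinery that makes meiotic DNA breaks. The comparison asks at which genes, and where in them, Spp1 peaks were lost or gained in the first 2 h.

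A gene counted as occupied in a library if a peak was centred on its coding sequence or on the 500 bp before its start codon. A gene lost its peak when it was occupied in 3 of 3 libraries at 0 h and in 0 of 3 at 2 h, gained one in the opposite case, and kept it when occupied in all 6. A broader class asked for 2 or 3 libraries of one time and 0 of the other. These are counts of libraries. Fisher's exact test per gene (two-sided, over the 2977 genes occupied in any library) cannot go below p = 0.1 with 3 against 3 and called 0 genes, none at an unadjusted p under 0.05. The lists hold no read counts. A missing peak may therefore reflect fewer cells with Spp1 at a gene, less Spp1 per cell or a shallower library, which cannot be told apart.

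1 library stood apart from its group. H3 wild type replicate 2 at 0 h had 1450 peaks, against 2119 in Spp1-myc and 2064 in replicate 1 at 0 h, and it had peaks in 2 of 138 ribosomal protein genes, against 107 and 106. Of its peaks, 77.6% were found in replicate 1 and 70.9% in Spp1-myc at 0 h. At 2 h, 66.6% were found in replicate 1, 52.3% in replicate 2 and 52.0% in Spp1-myc. These shares depend also on the length of the list searched. Of genes occupied in either list, it shared 50.8% with replicate 1 and 43.9% with Spp1-myc at 0 h. With the 2 h lists it shared 53.6% (replicate 1), 42.0% (replicate 2) and 45.4% (Spp1-myc). Why it stood apart was not tested. Counts of genes that lost peaks are given with and without it for the lists in which losses are described, to be read against 1.8% of all coding genes with it and 8.16% without it. No 2 of the 6 lists were copies of each other, since any pair held between 2 and 82 identical peaks.

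At 2 h there were 1163 peaks in Spp1-myc, 1520 in H3 wild type replicate 1 and 1302 in replicate 2, against 2119, 2064 and 1450 at 0 h. The lists averaged 1328 ± 180 peaks at 2 h and 1878 ± 371 at 0 h (SD, n = 3 each). The difference of -549 peaks had p = 0.333 in a two-sided exact permutation test within strain, and the groups overlapped. Without the 0 h library that stood apart, the difference was -763 peaks and the groups did not overlap (exact permutation p = 0.167). A low peak number was part of why that library was set apart. The wider difference therefore follows from leaving it out and is no independent support. With so few libraries, 0.167 is the smallest p this design allows, so no measure of this kind could pass a threshold of 0.05. The length of genome under peaks was 479.6, 494.9 and 400.3 kb at 2 h, against 685.7, 677.0 and 558.7 kb at 0 h. Those values did not overlap, with or without that library (exact permutation p = 0.167 both times).

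Of 6002 protein-coding genes, 1032, 1399 and 1205 were occupied at 2 h (Spp1-myc, H3 wild type replicate 1, replicate 2), against 2040, 1969 and 1365 at 0 h. Counting all 6 libraries, 1668 genes were occupied in fewer libraries at 2 h than at 0 h and 580 in more, while 3025 had no peak at either time. Peaks were lost at 108 genes (1.8% of all), gained at 14 (0.233%) and kept at 437 (7.28%). The broader classes held 540 genes (9%) with fewer and 129 (2.15%) with more. Without the 0 h library that stood apart, 490 genes (8.16%) met the strict rule for loss and 26 (0.433%) that for gain. Leaving out a library loosens the rule: strict losses numbered 166 without Spp1-myc and 194 without H3 wild type replicate 1 at 2 h, and strict gains 95 without Spp1-myc at 2 h and 20 to 39 without any other library. In Spp1-myc alone, 1240 genes (20.7%) had a peak at 0 h and none at 2 h and 232 (3.87%) the reverse. In the H3 wild type strain alone, with both replicates of each time in accord, these counts were 206 (3.43%) and 117 (1.95%).

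The same loci were partly shared between the times. In Spp1-myc, 68.4% of the 2 h peaks shared at least 1 bp with a 0 h peak, and 37.5% of the 0 h peaks with a 2 h peak. In the H3 wild type strain 39.2% to 66.6% of 0 h peaks were found at 2 h over 4 pairs of lists. Replicate lists of that strain shared 60.4% and 69.7% of their peaks at 2 h, and 54.5% and 77.6% at 0 h, so the overlap between times lay partly within that between replicates.

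**Figure D1:**
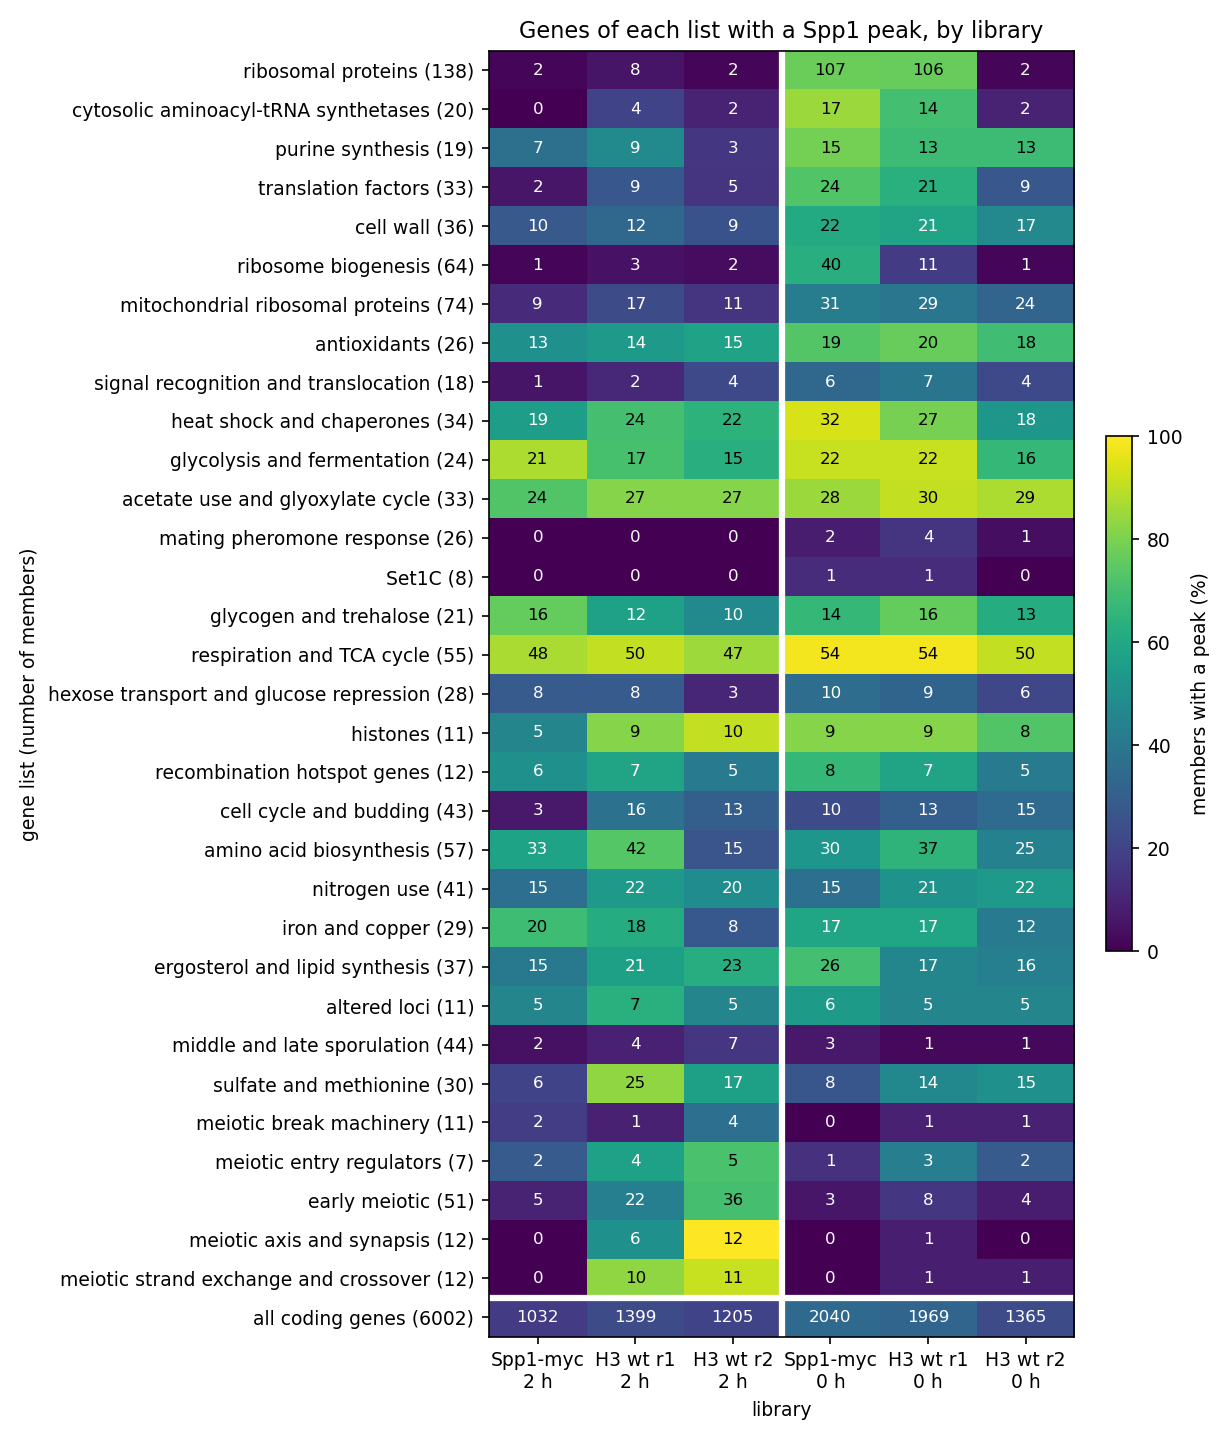
Number of genes of each list with a Spp1 peak (digits) and their share of the list in percent (colour), by library, the 2 h libraries left and the 0 h libraries right; rows run from the lists with the largest excess of occupied genes at 0 h to those with the largest excess at 2 h, with all coding genes last. Ribosomal protein genes stood at 2, 8 and 2 of 138 at 2 h against 107, 106 and 2 at 0 h, and early meiotic genes at 5, 22 and 36 of 51 at 2 h against 3, 8 and 4.

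The genes that encode the cytosolic ribosome held the widest difference in number of genes of the lists examined. Of 138 ribosomal protein genes, 2 were occupied in Spp1-myc, 8 in H3 wild type replicate 1 and 2 in replicate 2 at 2 h, against 107, 106 and 2 at 0 h. Spp1-myc and replicate 1 at 0 h stood far above all 2 h libraries, and the 0 h library that stood apart did not. As a result 0 of the 138 met the strict rule for loss, while 93 (67.4%) lost their peak once that library was left out, against 8.16% of all coding genes. That library was set apart partly by its count in these same genes, so the 67.4% is no independent support for a loss. These 93 genes were occupied in both of the other 0 h libraries and in no other library of the 6. The 2 ribosomal protein genes occupied in the 0 h library that stood apart were RPS13 and RPL15B, named here after their values were seen. In RPS13 its peak lay 483 bp upstream of the start codon, at the same place as the only 2 h peak, whereas the peaks of the other 0 h libraries lay inside the gene.

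RPL3, which encodes a protein of the large subunit (YOR063W, chrXV:444686-445849, plus strand, R64), had a 951 bp peak at chrXV:444700-445650 in Spp1-myc and an 851 bp peak at chrXV:444677-445527 in H3 wild type replicate 1 at 0 h, and no peak in the other 4 libraries. RPL32, another large-subunit gene, had peaks of 601 and 651 bp in the same 2 libraries, centred 3 and 29 bp from its start codon. These peaks ranked high in their lists: all 4 were at the 94th percentile of the Spp1-myc scores or the 89th of the H3 scores. The score is the authors' own value for each peak, and its percentile was taken within each list.

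Other parts of the protein-making machinery also had more occupied genes in Spp1-myc and H3 wild type replicate 1 at 0 h than in any 2 h library, though their counts in those libraries differed. Of 64 ribosome biogenesis genes, which act in the nucleolus to build ribosomes, 1, 3 and 2 were occupied at 2 h, against 40, 11 and 1 at 0 h. The count of 40 came from Spp1-myc alone: 29 of the 64 were occupied in that library and in no other. NOP1, the fibrillarin methyltransferase, was among the 6 occupied in both Spp1-myc and H3 wild type replicate 1 at 0 h and in no other library. Those 6 (9.38% of the list) are its losses without the 0 h library that stood apart, against 8.16% of all genes, and it had 0 under the strict rule. Of 33 translation factor genes, 2, 9 and 5 were occupied at 2 h, against 24, 21 and 9 at 0 h. EFT2, which encodes elongation factor 2, and SUI2, the alpha subunit of initiation factor eIF2, lost their peaks under the strict rule (6.06% of the list, against 1.8% of all genes). Without the 0 h library that stood apart, 12 of the 33 did (36.4%, against 8.16%). The 0 h peaks of EFT2 lay 280 to 330 bp upstream of its start codon, not in its coding region. Of 20 cytosolic aminoacyl-tRNA synthetase genes, 0, 4 and 2 were occupied at 2 h, against 17, 14 and 2 at 0 h. SES1, the seryl-tRNA synthetase gene, met the strict rule (5% of the list, against 1.8% of all genes). Leaving out the 0 h library that stood apart, 10 of the 20 met it (50%, against 8.16%).

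HMO1, which encodes a high-mobility-group protein that binds ribosomal protein promoters and rDNA, was a strict loss with well-ranked peaks. Its 0 h peaks were 551, 551 and 401 bp wide, centred 365, 365 and 440 bp inside the gene (YDR174W, chrIV:812110-812850, plus strand). No 2 h library had a peak there.

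Mitochondrial ribosomal protein genes formed a different case, because the 0 h library that stood apart had many of them. Of 74, 9, 17 and 11 were occupied at 2 h, against 31, 29 and 24 at 0 h, so the times did not overlap. MRP51, MRPL9, MRPS18 and PET123 lost their peaks under the strict rule (5.41% of the list, against 1.8% of all genes). With that library left out, 7 did (9.46%), near the 8.16% of all genes. Purine synthesis genes did not overlap between the times either: 7, 9 and 3 of 19 at 2 h, against 15, 13 and 13 at 0 h. Strict losses numbered 5 of the 19 (26.3%, against 1.8% of all genes), or 6 (31.6%, against 8.16%) without that library: ADE57, ADE6 and ADE13 of the pathway to inosine and adenine nucleotides, IMD3, an inosine monophosphate dehydrogenase gene, and HPT1, which salvages hypoxanthine and guanine. ADE57 (YGL234W, chrVII:56482-58890, plus strand) had peaks of 401, 351 and 1051 bp in the 3 libraries at 0 h and none at 2 h. Genes for signal recognition and translocation into the endoplasmic reticulum stood at 1, 2 and 4 of 18 at 2 h, against 6, 7 and 4 at 0 h, so these groups met at 4. SRP54 and SRP68, subunits of the signal recognition particle, and SEC62, of the translocon, were strict losses. They made up 16.7% of the list, and the list had 3 losses without that library too.

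Genes for nutrient transport and for the cell wall were among the best-ranked strict losses. BAT2, the cytosolic branched-chain aminotransferase gene (YJR148W, chrX:705744-706874, plus strand), had peaks of 951 bp in Spp1-myc and of 1051 and 1151 bp in the H3 wild type replicates at 0 h, covering most of the gene. HXT4, a hexose transporter gene (YHR092C, chrVIII:287081-288811, minus strand), had 0 h peaks of 801, 351 and 351 bp, centred 395, 162 and 249 bp inside the gene. TAT1, which encodes an amino acid permease, had 0 h peaks of 751, 1251 and 651 bp, and PTR2, which encodes the di- and tripeptide transporter, peaks of 451, 501 and 151 bp. None of these genes had a 2 h peak in any library. CWP1, a cell wall mannoprotein gene, and GAS1, a glucan remodelling enzyme gene, were the strict losses among 36 cell wall genes (5.56%, against 1.8% of all genes). There were 4 (11.1%, against 8.16%) without the 0 h library that stood apart. That list stood at 10, 12 and 9 occupied genes at 2 h, against 22, 21 and 17 at 0 h, without overlap between the times.

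The remaining best-ranked strict losses were NCW2, PRM4, PUB1, RTN1 and YLR111W. PUB1 encodes an RNA-binding protein and RTN1 a reticulon of the endoplasmic reticulum. The peaks counted for YLR111W lay 469 to 475 bp upstream of it. Among stress genes, SSA4, an inducible Hsp70 gene, and FES1, an Hsp70 exchange factor gene, were strict losses (5.88% of the list). The list of 34 heat shock and chaperone genes had 19, 24 and 22 occupied at 2 h, against 32, 27 and 18 at 0 h. The list kept peaks at 12 members in all libraries (35.3%, against 7.28% of all coding genes). Without the 0 h library that stood apart, it had 6 losses (17.6%, against 8.16% of all genes). TRX1, which encodes a thioredoxin, and MXR2, a methionine sulfoxide reductase gene, were strict losses among 26 antioxidant genes, of which 13, 14 and 15 were occupied at 2 h, against 19, 20 and 18 at 0 h, without overlap. These 2 made up 7.69% of the list, and they numbered 2 also without the 0 h library that stood apart, near the 8.16% of all genes.

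A single pair of peaks can enter neighbouring genes into a class. MXR2 and the adjacent STE50, an adaptor of the mating pathway, shared their 0 h peaks on chromosome III, and STE50 was the strict loss among 26 mating genes (3.85%), with 2 losses (7.69%) without the 0 h library that stood apart. That list stood at 0, 0 and 0 at 2 h, against 2, 4 and 1 at 0 h. Over the 6 lists, 7.16% of nuclear peaks were counted for more than 1 gene.

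**Figure D2:**
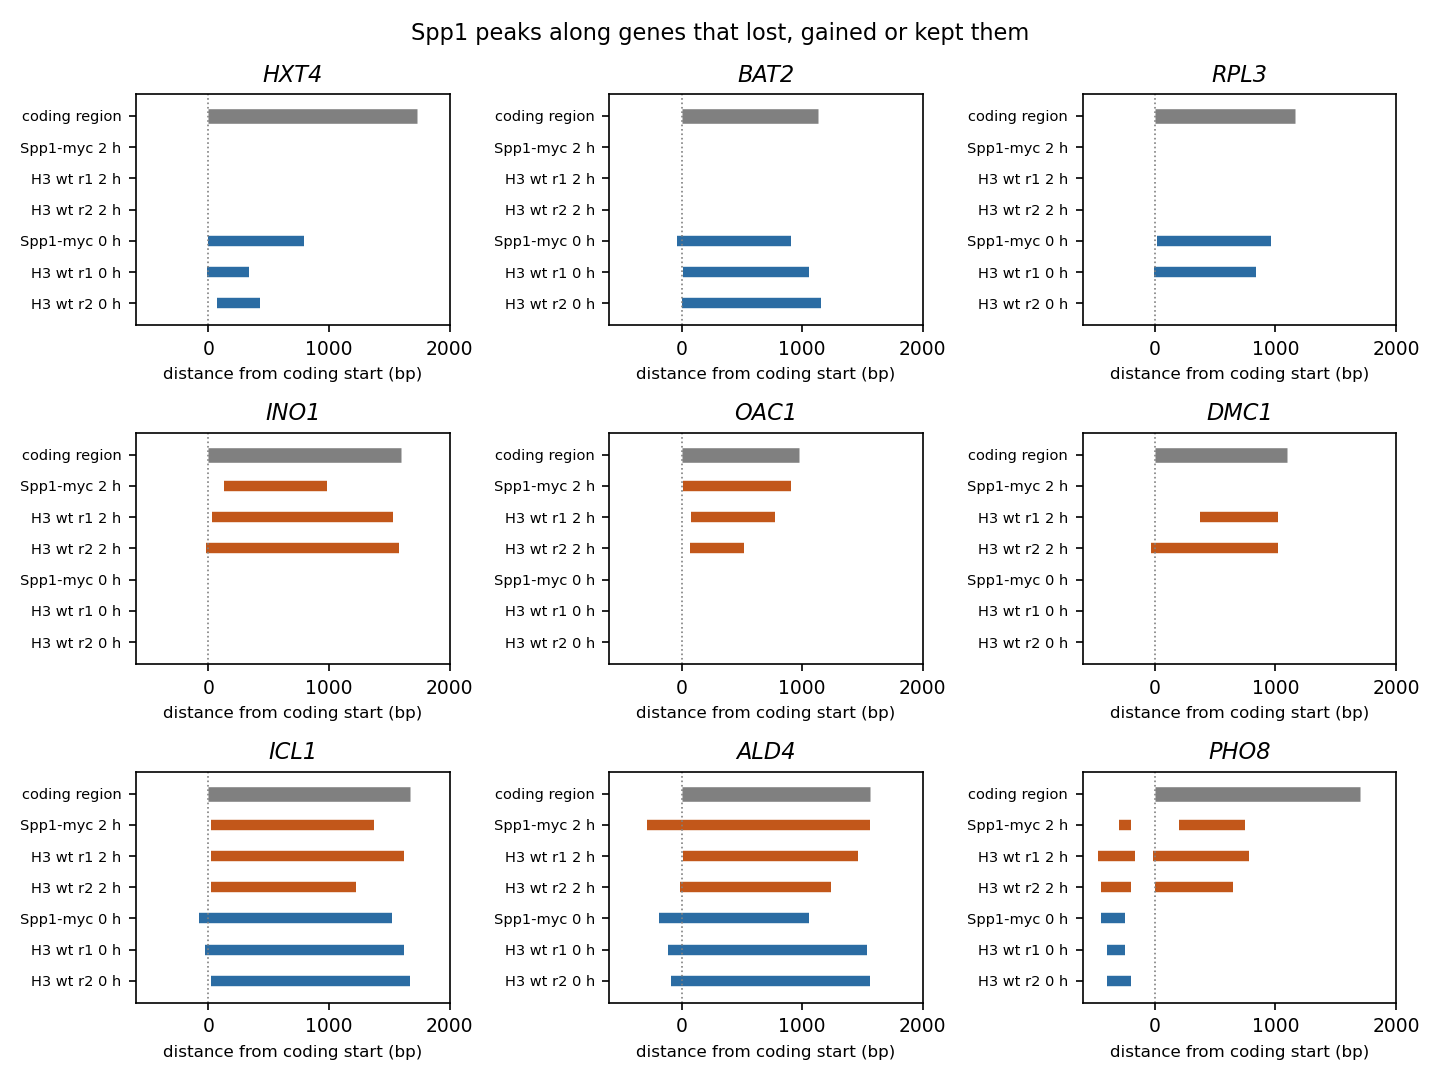
Extent of each Spp1 peak (coloured bars; orange 2 h, blue 0 h) along 9 genes, by library, with the 2 h libraries above the 0 h libraries; the x axis is the distance from the start codon in bp and the grey bar is the coding region. HXT4 and BAT2 had peaks in the 3 libraries at 0 h and none at 2 h, INO1 and OAC1 the reverse, DMC1 had peaks in the H3 wild type libraries at 2 h, and ICL1 and ALD4 had them in all 6.

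Each of the 14 genes that gained peaks had one in all 3 libraries at 2 h and none at 0 h. INO1, which encodes inositol-3-phosphate synthase (YJL153C, chrX:134332-135933, minus strand), had peaks of 851 bp in Spp1-myc, 1501 bp in H3 wild type replicate 1 and 1601 bp in replicate 2 at 2 h. OAC1, the mitochondrial oxaloacetate carrier gene (YKL120W, chrXI:217344-218318, plus strand), had 2 h peaks of 901, 701 and 451 bp. MAE1, the mitochondrial malic enzyme gene, had peaks centred 547, 378 and 339 bp inside the gene at 2 h, with further peaks toward its end in the H3 wild type replicates. HIS1, the gene of the first step of histidine synthesis, had 2 h peaks of 701, 701 and 251 bp. MCH1, which resembles monocarboxylate transporter genes, had 2 h peaks of 301, 351 and 251 bp near its start, centred 135, 142 and 160 bp from its start codon. DBP1, a DEAD-box RNA helicase gene, had 2 h peaks of 251, 601 and 401 bp.

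GPR1, which encodes the receptor that senses glucose, and SNF3, a glucose sensor gene, were also among the 14. The peaks of GPR1 were narrow, 201, 201 and 101 bp, and lay 107, 89 and 57 bp inside the gene. The SNF3 peaks were not at the same place in the strains: centred 220 bp inside the gene in Spp1-myc, but 2388 and 2370 bp inside it in the H3 wild type replicates. MOH1 and RRT1 are neighbours and entered the class through the same peaks, which lay in MOH1. NAG1, LSO1, NNK1 and YBR284W completed the 14. GPR1 and NAG1 lay outside the naming rule and are named because the class is small.

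Genes of early meiosis were gained in the H3 wild type strain. Of 51 early meiotic genes, 5 were occupied in Spp1-myc, 22 in H3 wild type replicate 1 and 36 in replicate 2 at 2 h, against 3, 8 and 4 at 0 h. The H3 wild type replicates at 2 h stood above all other libraries, while Spp1-myc at 2 h lay within the 0 h range. In both replicates of the H3 wild type strain together, 17 of the 51 (33.3%) were occupied at 2 h and in neither at 0 h, against 1.95% of all coding genes. In Spp1-myc 4 of the 51 (7.84%) were gained, against 3.87% of all genes. Whether the strains differed was not tested, since Spp1-myc had 1 library per time. Of the 51, 13 had no peak in any of the 6 libraries.

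Regulators of meiotic entry came first in this order of roles. IME1, the master activator of meiosis (YJR094C), was occupied in 3 of 3 libraries at 2 h and, at 0 h, in both H3 wild type libraries but not in Spp1-myc. Its peaks near the start codon were 651, 501 and 501 bp wide at 2 h, against 401 and 601 bp in the H3 wild type replicates at 0 h. RIM4, which encodes an RNA-binding protein of meiosis, had the same layout. IME2, the kinase gene that acts downstream of Ime1, had peaks of 501 and 701 bp at its start in the H3 wild type replicates at 2 h. Each of these replicates also had a 251 bp peak further in, centred 840 and 837 bp from the start codon. No other library of the 6 had a peak there. UME6, which encodes the DNA-binding partner of Ime1, had 2 h peaks of 401 and 601 bp in these replicates. NDT80, the activator of middle genes, had no peak in any of the 6 libraries.

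Genes of the break machinery were seldom occupied: 2, 1 and 4 of 11 at 2 h, against 0, 1 and 1 at 0 h. REC107, which encodes the axis partner of Spp1 known as Mer2, had narrow 2 h peaks of 101, 151 and 201 bp, against peaks of 451 and 351 bp in the H3 wild type replicates at 0 h. The 2 h peaks ranked low in their lists, at score percentiles of 4.99, 5.92 and 17.3, against 72.8 and 36.8 at 0 h. SPO11, which encodes the break-forming enzyme, had 1 peak, 478 bp upstream, in Spp1-myc at 2 h.

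Axis and synapsis genes stood at 0, 6 and 12 of 12 at 2 h, against 0, 1 and 0 at 0 h. HOP1, which encodes an axis protein (YIL072W, chrIX:226602-228419, plus strand), had a 601 bp peak in replicate 1 and a 1001 bp peak in replicate 2 at 2 h. MEK1, the axis-associated kinase gene, had 2 h peaks of 701 and 251 bp in replicate 1 and 1 peak of 1251 bp in replicate 2. ZIP1, of the synaptonemal complex, had 2 h peaks of 151 and 601 bp.

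Genes of strand exchange and crossover formation came next. Of 12, 0, 10 and 11 were occupied at 2 h, against 0, 1 and 1 at 0 h. DMC1, the meiotic recombinase gene (YER179W, chrV:548421-549517, plus strand), had a peak at chrV:548794-549444 in replicate 1 and at chrV:548392-549442 in replicate 2 at 2 h, and none elsewhere. MND1, which encodes a partner of Dmc1, had 2 h peaks of 451 and 901 bp, and MSH5, of the crossover complex with Msh4, narrow ones of 101 and 151 bp. Replicate 2 had the wider peak for each of DMC1, HOP1, MEK1, ZIP1, MND1 and MSH5. Of 44 middle and late sporulation genes, 2, 4 and 7 were occupied at 2 h, against 3, 1 and 1 at 0 h, and 35 had no peak in any library.

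**Figure D3:**
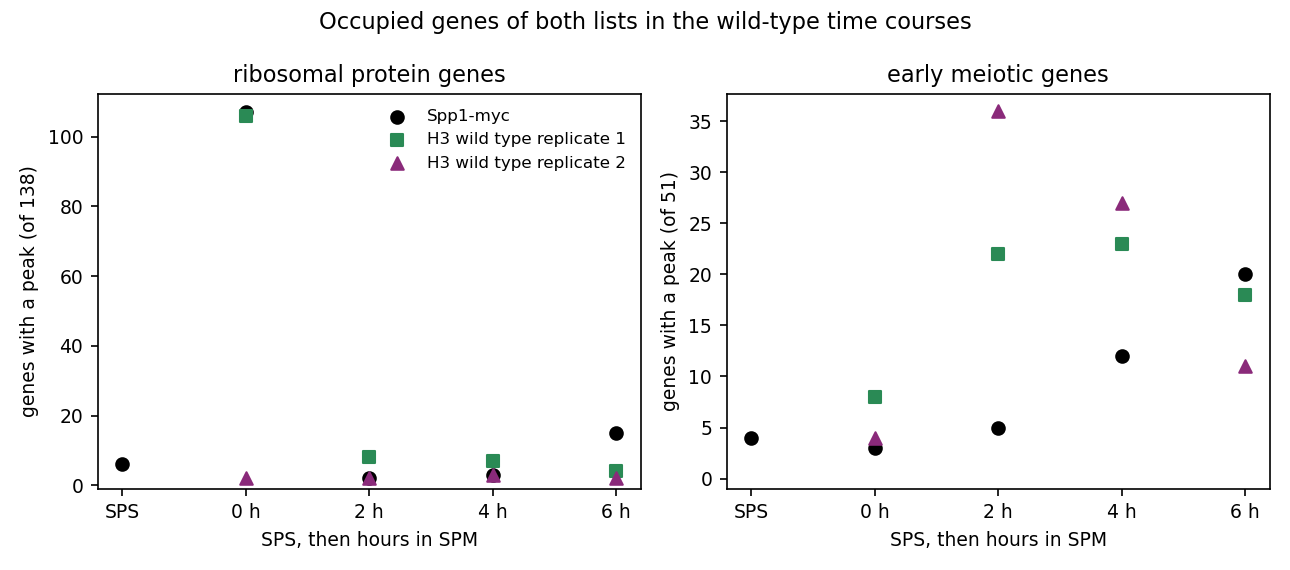
Number of genes with a Spp1 peak in SPS medium and at 0, 2, 4 and 6 h in SPM for 138 ribosomal protein genes (left) and 51 early meiotic genes (right), each point 1 library of Spp1-myc or of an H3 wild type replicate; only Spp1-myc was mapped in SPS. Ribosomal protein genes were at 107 and 106 in 2 libraries at 0 h and at 15 or fewer in every other library shown, and early meiotic genes in Spp1-myc reached 12 at 4 h and 20 at 6 h.

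Libraries outside the comparison placed these lists in the full time courses. In Spp1-myc, 6 of the 138 genes were occupied in SPS, 107 at 0 h, 2 at 2 h, 3 at 4 h and 15 at 6 h. In the H3 wild type strain the later counts were 7 and 3 at 4 h and 4 and 2 at 6 h. Early meiotic genes in Spp1-myc numbered 4 in SPS, 3 at 0 h, 5 at 2 h, 12 at 4 h and 20 at 6 h, against 23 and 27 at 4 h and 18 and 11 at 6 h in the H3 wild type strain. A difference in timing between the strains was not tested. Of the 108 strict losses, 71 had no peak in any of the 6 wild-type libraries at 4 or 6 h, whereas 12 of the 14 strict gains had one in 3 or more of them. These 2 counts were not made over all coding genes. By library, 1.85% to 15.7% of the strict losses were occupied at 4 or 6 h, against 7.75% to 19.4% of all coding genes. The strict gains stood at 14.3% to 92.9%. Whether the losses lasted beyond the low share of all genes was not tested.

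Many genes of the acetate-based metabolism that cells use in SPM kept their peaks. Of 33 genes of acetate use and the glyoxylate cycle, 24, 27 and 27 were occupied at 2 h, against 28, 30 and 29 at 0 h. The counts were thus lower at 2 h, without overlap between the times. Over all coding genes, the mean number occupied was lower too, 1212 at 2 h against 1791 at 0 h. Whether the acetate list fell by more than all genes was not tested. Of the 33, 21 (63.6%) were kept in all 6 libraries, against 7.28% of all coding genes. ICL1, the isocitrate lyase gene (YER065C), had 2 h peaks of 1351, 1601 and 1201 bp, against 1601, 1651 and 1651 bp at 0 h. ALD4, a mitochondrial aldehyde dehydrogenase gene (YOR374W), had 2 h peaks of 1851, 1451 and 1251 bp, against 1251, 1651 and 1651 bp at 0 h. The ICL1 widths of the times met at 1601 bp, and those of ALD4 overlapped.

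Respiration and tricarboxylic acid cycle genes were occupied in 48, 50 and 47 of 55 cases at 2 h, against 54, 54 and 50 at 0 h. Of the 55, 40 (72.7%) were kept, against 7.28% of all coding genes. Of 24 glycolysis and fermentation genes, 21, 17 and 15 were occupied at 2 h, against 22, 22 and 16 at 0 h. TDH3, TPI1 and FBA1 were among the 11 kept (45.8%, against 7.28%). The other genes named by rank among those kept were ADH2, MDH2, PYC1, POR1, ILV5, HMX1, HYP2, MPC3, MTC7 and NCE103. These, ICL1 and ALD4 all tied at the top score percentile in every library. Ties were taken by name, so being named does not mark them as the strongest kept genes. POR1 encodes the mitochondrial porin and PYC1 a pyruvate carboxylase. HYP2 encodes the translation factor eIF5A and was the only member of the translation factor list to keep a peak in all 6 libraries. MTC7, its neighbour on chromosome V, was counted as kept through these HYP2 peaks, whose centres lay 212 to 262 bp upstream of MTC7.

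The groups overlapped in the other lists of nutrient use, storage and growth. Of 57 amino acid biosynthesis genes, 33, 42 and 15 were occupied at 2 h, against 30, 37 and 25 at 0 h. Of 30 sulfate and methionine genes, 6, 25 and 17 were occupied at 2 h, against 8, 14 and 15 at 0 h. MET5, MET10 and MET14, of sulfate assimilation, were occupied in both H3 wild type libraries at 2 h and in no other. Nitrogen use genes stood at 15, 22 and 20 of 41 at 2 h, against 15, 21 and 22 at 0 h, and iron and copper genes at 20, 18 and 8 of 29, against 17, 17 and 12. Hexose transport and glucose repression genes stood at 8, 8 and 3 of 28 at 2 h, against 10, 9 and 6 at 0 h. The mean difference was -2, and its sign held in the 12 alternatives tried. That of glycogen and trehalose genes (-1.67) held too. Over all coding genes, the mean number occupied was also lower, 1212 at 2 h against 1791 at 0 h. The kept sign therefore does not set the hexose list apart. A fall beyond that of all genes was not tested. Of the 28 hexose genes, 1 was a strict loss (3.57%), and 5 were lost (17.9%, against 8.16% of all genes) without the 0 h library that stood apart. Ergosterol and lipid synthesis genes stood at 15, 21 and 23 of 37 at 2 h, against 26, 17 and 16 at 0 h, glycogen and trehalose genes at 16, 12 and 10 of 21, against 14, 16 and 13, and cell cycle and budding genes at 3, 16 and 13 of 43, against 10, 13 and 15.

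Genes that encode histones and the Set1 complex, and the loci altered in the strains, served as checks. Of 11 histone genes, 5, 9 and 10 were occupied at 2 h, against 9, 9 and 8 at 0 h. HHT1, labelled as deleted in the H3 wild type strain, had a peak in Spp1-myc at both times and in 0 of 4 H3 wild type libraries. HHT2 had a peak in all 6, where reads from the plasmid copy and from the chromosome cannot be told apart. SPP1, URA3 and HO had none. HIS4, the site of a well-studied recombination hotspot, was occupied in Spp1-myc and H3 wild type replicate 1 at 2 h, with peaks of 1051 and 201 bp, and in no other library. Over 12 hotspot genes the counts were 6, 7 and 5 at 2 h, against 8, 7 and 5 at 0 h. Of 8 Set1C genes, SWD3 was the only one with a peak, 477 and 451 bp upstream of its start codon in Spp1-myc and H3 wild type replicate 1 at 0 h. The 11 altered loci had 5, 7 and 5 occupied at 2 h, against 6, 5 and 5 at 0 h.

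The share of peaks within 500 bp upstream of a start codon was 11.3% (95% Wilson interval 9.59 to 13.3) in Spp1-myc, 8.97% (7.62 to 10.5) in H3 wild type replicate 1 and 15.3% (13.4 to 17.4) in replicate 2 at 2 h. At 0 h it was 7.95% (6.86 to 9.20), 8.53% (7.39 to 9.82) and 8.03% (6.73 to 9.56). The intervals cover counting error only. Means were 11.8 ± 3.19% at 2 h and 8.17 ± 0.311% at 0 h (SD, n = 3 each). The groups did not overlap, but the intervals of the lowest 2 h value and the highest 0 h value did (exact permutation p = 0.167, the smallest possible, and 0.333 without the 0 h library that stood apart). Convergent intervals, where genes face each other, held 0.613%, 0.469% and 0.633% of peaks at 2 h, against 0.627%, 0.931% and 0.915% at 0 h (exact permutation p = 0.167, with overlap).

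Within genes of 1000 bp or more, the first of 5 equal parts held 35.2%, 44.5% and 54.0% of coding peaks at 2 h, against 56.8%, 51.5% and 34.5% at 0 h. The groups overlapped, and the H3 wild type replicates of 1 time differed from each other by more than the means of the times did. The difference of means was -3.01 percentage points (exact permutation p = 0.833), or -9.55 without the 0 h library that stood apart (exact permutation p = 0.5). Leaving out Spp1-myc at 2 h instead turned the difference to 1.69 percentage points. The middle part of the gene held 15.8%, 11.1% and 5.22% of peaks at 2 h, against 3.88%, 6.11% and 16.5% at 0 h. These values overlapped too. The last part held 4.23%, 3.18% and 4.33% at 2 h, against 3.46%, 3.84% and 3.08% at 0 h (exact permutation p = 0.333). The median peak centre lay 425, 376 and 313 bp inside the gene at 2 h, against 301, 318 and 429 bp at 0 h.

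**Figure D4:**
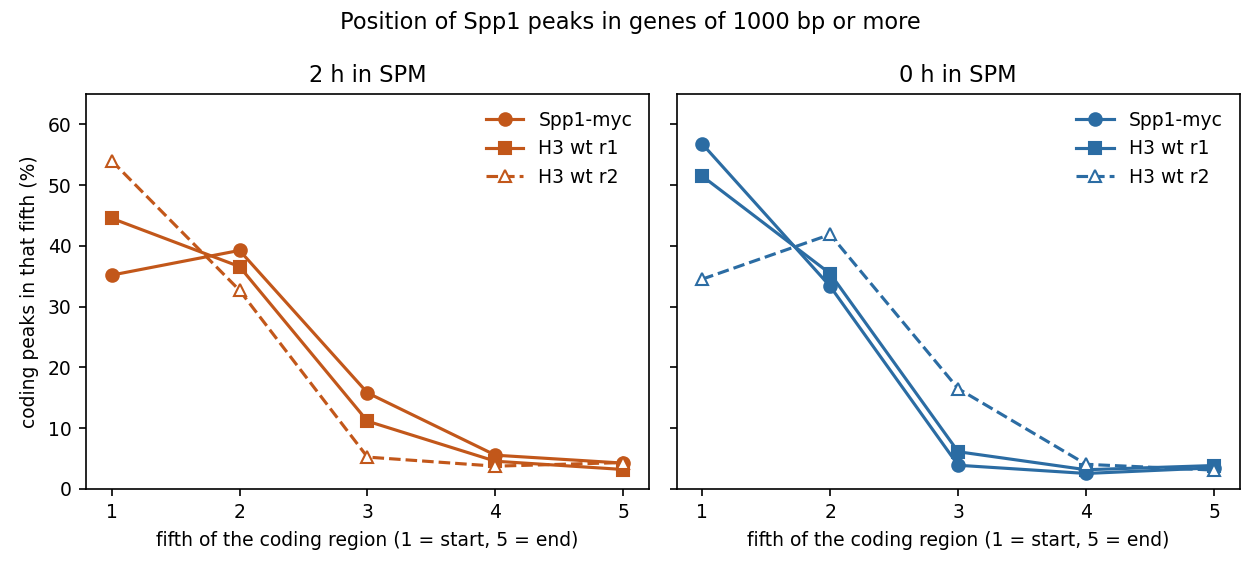
Share of coding peaks (percent) by part of the coding region, cut into 5 equal parts from start to end, for genes of 1000 bp or more, with 1 line per library, 2 h left and 0 h right. H3 wild type replicate 2 crosses the other lines of its time: 54.0% of its peaks were in the first part at 2 h and 34.5% at 0 h.

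The 437 genes with a peak in all 6 libraries allow position to be followed in the same genes. In the 231 of them of 1000 bp or more, median peak centres were taken as a fraction of the coding length from the start codon. These lay at 0.263, 0.245 and 0.192 at 2 h, against 0.207, 0.228 and 0.282 at 0 h. In Spp1-myc, 201 of the 437 had peaks more than 50 bp further into the gene at 2 h and 64 more than 50 bp nearer the start. In the H3 wild type strain these counts were 132 and 66 for replicate 1 at 2 h set against replicate 1 at 0 h, and 68 and 155 for replicate 2 at 2 h set against the same list. Set against replicate 2 at 0 h, they were 53 and 148 for replicate 1 at 2 h and 33 and 226 for replicate 2. The direction thus differed between the pairs of libraries.

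In 32 of the 437 genes the peak centres of the times did not overlap, 14 further in and 18 nearer the start at 2 h. Exchangeable values would separate 3 against 3 in a fraction of 0.1 of genes, and 32 of 437 lies below that. The shifts are therefore described as examples, and a change with time was not tested. The genes described next are the 6 of these 32 with the widest shifts. Some genes whose centres did overlap shifted by more. PHO8, the vacuolar alkaline phosphatase gene (YDR481C), had peaks centred 250 to 350 bp upstream in all 6 libraries, and a second peak, 551, 801 and 651 bp wide, inside the gene in the 3 libraries at 2 h alone. GCN4, the activator of amino acid genes (YEL009C), had a coding peak of 551 to 751 bp in every library and a peak 429 to 455 bp upstream in the 3 libraries at 0 h alone. MET13, a methylenetetrahydrofolate reductase gene, had mean peak centres 270.5, 527 and 247 bp inside the gene at 2 h, against 1243.5, 693.5 and 913 bp at 0 h. CPR6, YRB2 and FLO11 completed the 6, and in each the mean peak centre lay further toward or past the start codon at 2 h. FLO11, a long cell surface flocculin gene, had peaks near both ends in 5 libraries and near its start only in H3 wild type replicate 2 at 2 h.

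The ratio of peak numbers between the times varied over chromosomes. Chromosome III had 20, 17 and 21 peaks at 2 h, against 58, 55 and 28 at 0 h, a ratio of means of 0.411, the lowest of the 16. Chromosome XI had 70, 92 and 70 at 2 h, against 119, 93 and 76 at 0 h, a ratio of 0.806, the highest. Differences between chromosomes were not tested.

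Libraries of the other strains, which played no part in choosing the genes, gave a second look at the classes. These were Bre2-myc (another Set1C subunit), Spp1-myc without its PHD finger or without its CXXC domain, and Spp1-HA in cells with H3K4R or H3R2A as H3, 7 libraries per time. The 108 strict losses had a peak in a median of 12.0% of genes per library at 2 h (6.48% to 64.8%), against 52.8% at 0 h (38.0% to 68.5%). The highest 2 h value was in an H3K4R library. The 14 strict gains were occupied at a median of 64.3% at 2 h (28.6% to 85.7%), against 0% at 0 h (0% to 14.3%), with no overlap. Kept genes stood at 82.8% at 2 h and 89.7% at 0 h, and all coding genes at 16.4% at 2 h and 22.0% at 0 h.

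**Figure D5:**
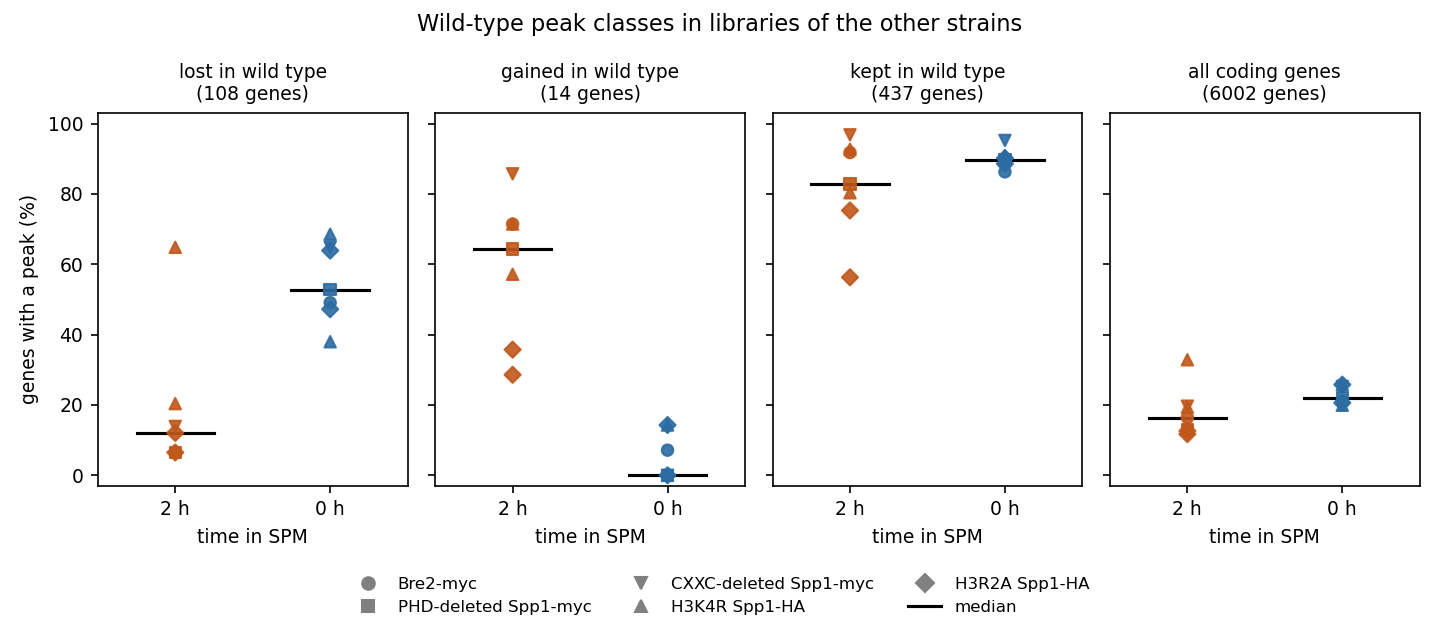
Percent of genes with a peak in each of 14 libraries of 5 other strains (markers), 2 h left and 0 h right, for the genes that lost, gained or kept peaks in wild type and for all coding genes, with black bars at the median. The gained genes did not overlap between times, with 28.6% or more at 2 h and 14.3% or less at 0 h.

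The ribosomal protein genes stood at 3 of 138 at 2 h against 130 at 0 h in Bre2-myc, 1 against 127 without the PHD finger and 2 against 106 without the CXXC domain. In H3K4R they stood at 67 and 74 at 2 h against 63 and 111 at 0 h (replicates 1 and 2), and in H3R2A at 38 and 25 against 112 and 12. Replicates of these 2 strains at 0 h thus lay far apart, and differences between the strains were not tested. Early meiotic genes were occupied in 0 to 4 of 51 cases in these libraries at 2 h and 2 to 6 at 0 h, below the 22 and 36 of the H3 wild type strain. Sulfate and methionine genes were at 14 to 30 of 30 at 2 h (median 24) against 9 to 14 at 0 h (median 10). Purine synthesis genes were at 5 to 11 of 19 at 2 h (median 8) against 5 to 15 at 0 h (median 7). The purine median was thus not lower at 2 h, unlike the wild-type counts.

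Position was compared in the same 14 libraries. The first part of the gene held 39.3 ± 10.6% of coding peaks at 2 h and 49.2 ± 4.21% at 0 h (SD, n = 7 each), a difference of -9.84 percentage points (two-sided exact permutation p = 0.0208, 0.0694 adjusted over 4 measures). The last part held 6.99 ± 5.70% at 2 h and 3.70 ± 1.23% at 0 h, a difference of 3.28 (exact permutation p = 0.0347, 0.0694 adjusted). H3R2A replicate 1 at 2 h held 19.1% there, the highest of the 14 libraries, and without it the difference was 1.27. Neither the first-part nor the last-part difference passed after adjustment. Both passed without H3K4R replicate 2 at 2 h (exact permutation, adjusted p = 0.0139 each) and without CXXC-deleted Spp1-myc at 2 h (adjusted p = 0.0417 each). The promoter share differed by 0.242 percentage points (exact permutation p = 0.549 unadjusted and adjusted), and the number of peaks by -231 (exact permutation p = 0.194, 0.259 adjusted), or -369 without H3K4R replicate 2 at 2 h (0.0278 adjusted).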

How the data were processed

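Peak lists of 6 ChIP-seq libraries were compared, with 14 libraries of other strains and the later wild-type libraries for reference. The authors deposited 1 list per sample, each peak with its position, width and a score, a fraction between 0.5 and 1 whose caller is not given in the sources used here, with no stated normalization. Widths and positions (unit bp, deposited as other values) were used as given. BWA, deepTools and the sacCer3 build are named in the submitters' processing notes without versions. Nothing in these sources names a peak threshold or a control. Without read counts the depth behind a list is unknown, and the intervals (95% Wilson) cover counting error over peaks only. The input and untagged samples were not analysed here.

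Genes came from a RefSeq table of R64 (6002 protein-coding genes), with strand read from the systematic name. Peaks on a sequence named chrXVII could not be assigned to genes. A peak entered a gene when its midpoint lay in the coding region or within 500 bp upstream. Tests were two-sided exact permutations of time labels within strain (12 arrangements for the 6 libraries), Fisher's exact test per gene with Benjamini-Hochberg adjustment, and exact permutation over 288 arrangements for the other strains, adjusted over 4 measures. Gene lists were described by counts, without tests. Covered length, the middle part of the gene and the lists of mitochondrial ribosomal, purine, aminoacyl-tRNA synthetase, signal recognition and meiotic subgroup genes were added after their values were seen. The members, lists and tests were chosen with earlier results of these data known. Of the symbols in the lists, 3 matched no gene.

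The genes named were the first 12 of each strict class by mean score percentile, with ties by name, and up to 4 members of each list (strict class members first). Named too were all Set1C genes, all altered loci and the 6 widest shifts among kept genes whose peak centres did not overlap between times. Members counted in a pattern, and RPS13, RPL15B, IME1, RIM4, REC107, SPO11, ZIP1, MSH5, GPR1 and NAG1, were added once their values had been seen. Calling of classes was tested on simulated data. Python 3.11.15, numpy 2.4.6, pandas 2.3.3 and scipy 1.17.1 were used. Alternatives were the higher-scoring part of each list, equal list sizes, other windows and gene lengths, any overlap with the gene, free permutation, a replicate block and leaving out each library.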

Additional observations from a re-analysis of the deposited data

Results flagged for a closer look

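In 4 gene lists every library of a strain moved one way and every library of the other strain the opposite way. Spp1-myc had 1 library per time, so these differences between the strains were not tested. Middle and late sporulation genes with a peak numbered 2 at 2 h and 3 at 0 h in Spp1-myc, and 4 and 7 at 2 h against 1 and 1 at 0 h in the H3 wild type strain (replicates 1 and 2). Glycogen and trehalose genes numbered 16 at 2 h and 14 at 0 h in Spp1-myc, and 12 and 10 at 2 h against 16 and 13 at 0 h in the H3 wild type strain. Sulfate and methionine genes numbered 6 at 2 h and 8 at 0 h in Spp1-myc, and 25 and 17 at 2 h against 14 and 15 at 0 h in the H3 wild type strain. Ergosterol and lipid synthesis genes numbered 15 at 2 h and 26 at 0 h in Spp1-myc, and 21 and 23 at 2 h against 17 and 16 at 0 h in the H3 wild type strain.

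Peaks on the sequence named chrXVII, which the comparison of genes did not use, were present in every list. They numbered 21 in Spp1-myc and 26 and 38 in H3 wild type replicates 1 and 2 at 2 h, against 44, 23 and 30 at 0 h, and the groups overlapped.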

How the results depend on the processing

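No measure of the 6 wild-type libraries could pass 0.05 under any alternative, since no p could go below 0.1. The sign of the start-part difference turned on leaving out Spp1-myc at 0 h (1.58 percentage points) or at 2 h (1.69), over a range of -9.55 to 1.69. The median distance turned with the same libraries, to -2.17 and -4.83 bp, over a range of -4.83 to 61.8. In genes of 2000 bp or more the last-part difference was -0.751 percentage points, against 0.454 in genes of 1000 bp or more. The cause was not tested.

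Counts of genes depended on the length of the lists. With only the better-scoring peaks of a list, those at or above its median score, 58 genes met the strict rule for loss, 173 were kept and 297 met the broader rule for loss. With the 1163 best-scoring peaks of every list, 41 were lost, 24 gained and 228 lost by the broader rule. On leaving out 1 library the count ranged from 128 to 490 for strict loss, 20 to 95 for strict gain, 448 to 560 for kept genes, 128 to 719 for broader loss and 23 to 179 for broader gain. Fewer libraries are asked for there by construction. Strict loss reached 490 without H3 wild type replicate 2 at 0 h and strict gain 95 without Spp1-myc at 2 h.

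The mean difference in occupied ribosomal protein genes was -67.7. It was -43.0 with the better-scoring peaks, -43.7 with equal list sizes and between -102.5 and -50 on leaving out 1 library. For early meiotic genes it was 16.0, with 8.50 (without H3 wild type replicate 2 at 2 h) to 24.0 (without Spp1-myc at 2 h) on leaving out 1 library. In both, none of 12 alternatives changed the sign. Nitrogen use changed sign under 5, and iron and copper and ergosterol and lipid synthesis, both at a difference of 0, have no sign to keep.

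In the other strains, the promoter difference turned to -0.239 percentage points with the better-scoring peaks and ranged from -0.0528 to 0.582 on leaving out 1 library. The start-part difference passed after adjustment with equal list sizes (-7.97, exact permutation adjusted p = 0.0208) and ranged from -12.5 to -7.68. The last-part difference ranged from 1.27 (without H3R2A replicate 1 at 2 h) to 4.12, and that of peak number from -369 to -176. All 3 passed without H3K4R replicate 2 at 2 h, and both position measures without CXXC-deleted Spp1-myc at 2 h.

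A replicate block, pairing libraries by strain and number, gave the same differences (peak number -549, exact permutation p = 0.25, the smallest 8 arrangements allow). The numbers are not known to pair libraries: same-numbered deviations had r = -0.0102 over 2611 genes. The promoter motif search was not run.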

Other observations

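Narrow and wide peaks differed between libraries more than between times. Peaks of 500 bp or more made up 33.2% of the list in Spp1-myc, 21.6% in H3 wild type replicate 1 and 19.4% in replicate 2 at 2 h, against 20.3%, 20.3% and 29.5% at 0 h. The lowest value of the 2 h libraries and the highest of the 0 h libraries both came from replicate 2.

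The median coding length was 1126.5 bp in the 108 strict losses, 1531.5 bp in the 14 strict gains and 1029 bp in the 437 kept genes, against 1200 bp over all coding genes. Genes of 1000 bp or more made up 58.3%, 57.1% and 52.9% of these classes, against 59.8% of all genes.

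At 2 h the H3 wild type replicates shared 52.5% of the genes occupied in either, and Spp1-myc shared 46.4% with replicate 1 and 37.2% with replicate 2. At 0 h Spp1-myc shared 66.8% with replicate 1 of the H3 wild type strain, more than the 50.8% that the replicates of that strain shared with each other.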
